A study of Gallus gallus with 8 samples.

Results

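The Notch ligand genes JAG1, JAG2 and DLL1, the glycosyltransferase gene LFNG and the feedback inhibitor gene NRARP were followed through early chick ectoderm. They were picked by name from the deposited table of 17329 genes, and all 5 were found, each in 1 row. RNA was sequenced in 8 libraries, 1 for each tissue, and how many embryos each pooled is not stated. The tissues were anterior and central pre-streak epiblast (stage EGKXII/XIII), area opaca epiblast at HH4 that had touched a grafted Hensen's node for 5 hours, ungrafted area opaca from the other side of those embryos, and 4 ectoderm tissues of HH6/7 embryos. Of these, one was the neural plate, a pair came from the front and back of the preplacodal region (anterior and posterior PPR, from which cranial placodes arise), and the last was head ectoderm neither neural nor placodal, called non-neural ectoderm here. The labels name no mutation or drug; the graft was the treatment, and the embryos that gave the ungrafted control carried it too. One laboratory made the neural plate, area opaca and pre-streak libraries and a second the PPR and non-neural ones, per the labels. Laboratory and tissue thus cannot be told apart wherever libraries of the first are set against those of the second. This holds for neural plate against PPR or non-neural ectoderm, and for any order over all 8 libraries.

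Notch signalling passes between touching cells. A ligand on one cell, of the Delta (DLL) or the Serrate/Jagged (JAG) family, binds a NOTCH receptor on its neighbour; the receptor is then cut, and its inner part enters the nucleus, where it joins RBPJ and a Mastermind-like (MAML) protein to switch on HES and HEY repressors. LFNG, a Fringe enzyme, extends O-fucose sugars on the receptor and thereby favours signalling by Delta over that by Jagged ligands. NRARP is a small ankyrin-repeat protein, itself induced by Notch, that dampens the signal. In early ectoderm the pathway is known for spacing out neurons in the neural plate and for setting boundaries between territories.

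With 1 library per tissue no difference had a replicate check and none was tested. Levels are given as CPM (the count divided by the library's total count, times 1000000), and intervals in square brackets are exact 95% intervals that cover counting error only. A gene was called higher or lower where the CPM ratio reached 2 and the higher library had at least 5 CPM. Library totals were 13053810 and 14573663 counts for the grafted and the ungrafted area opaca and ran from 58731944 to 138666339 for the other 6. The exact interval of a count of 0 thus reaches up to 0.283 CPM in the area opaca pair and up to 0.0628 CPM elsewhere. Markers followed the tissue labels in part: SOX2, the general neural plate factor, stood at 59.98 CPM in the neural plate and 0.153 CPM in the non-neural ectoderm; EYA2, a preplacodal marker, stood at 78.4 CPM in the anterior and 78.4 CPM in the posterior PPR, against 13.6 CPM in the non-neural ectoderm, while DLX3, also on the preplacodal list, was at 40.5, 17.3 and 47.7 CPM in those tissues; and of the non-neural markers GATA2 stood at 272 and 196 CPM in the anterior and posterior PPR and at 660.05 CPM in the non-neural ectoderm. Against this, GATA3, TFAP2A and DLX5 of the non-neural list were higher in both PPR libraries than in the non-neural ectoderm (TFAP2A at 277 and 323 against 178 CPM), and the neural markers OTX2 and LHX5 were as high in the anterior PPR (283 and 196 CPM) as in the neural plate (281 and 194 CPM). SOX1, another neural marker, had no count in any library. In such tissue pieces, fewer cells that express a gene and less RNA per cell cannot be told apart.

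JAG1 (ENSGALG00000009020) reached its highest level not in a tissue of the embryo proper but in area opaca that had met the node. It stood at 2.08 CPM in the anterior and 2.95 CPM in the central pre-streak epiblast, at 26.7 CPM in the grafted and 2.47 CPM in the ungrafted area opaca, and at 9.37 CPM in the neural plate, 15.4 CPM in the anterior PPR, 18.1 CPM in the posterior PPR and 6.21 CPM in the non-neural ectoderm. The grafted library was 1.48-fold above the next one, the posterior PPR [1.32, 1.65]. Those libraries also differ in laboratory, stage and depth, which cannot be told apart from tissue here. The 3 lowest libraries were both pre-streak tissues and the ungrafted area opaca; their neighbours in rank differed by 1.19-fold, with intervals that included 1. From the lowest to the highest library JAG1 spanned 12.9-fold, the narrowest range of the 5 genes.

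JAG2 (ENSGALG00000011696), the second Jagged ligand, had its highest level in the non-neural ectoderm. It stood at 1.91 CPM in the anterior and 10.3 CPM in the central pre-streak epiblast, at 23.5 CPM in the grafted and 135 CPM in the ungrafted area opaca, and at 8.39 CPM in the neural plate, 39.3 CPM in the anterior PPR, 47.5 CPM in the posterior PPR and 186 CPM in the non-neural ectoderm. The 2 highest libraries were non-neural ectoderm and ungrafted area opaca, which came from different stages and laboratories; the first was 1.37-fold above the second [1.31, 1.44], and the second 2.84-fold above the posterior PPR [2.70, 2.99]. The range over the 8 libraries was 97.4-fold, and every step in this order was larger than counting error.

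DLL1 (ENSGALG00000011182), the Delta ligand of neuron and boundary formation, was lowest in the anterior pre-streak epiblast, the grafted area opaca and the neural plate. It stood at 0.381 CPM (38 counts) in the anterior and 14.9 CPM in the central pre-streak epiblast, at 1.38 CPM (18 counts) in the grafted and 11.0 CPM in the ungrafted area opaca, and at 2.84 CPM in the neural plate, 31.2 CPM in the anterior PPR, 25.5 CPM in the posterior PPR and 28.1 CPM in the non-neural ectoderm. Both PPR libraries and the non-neural ectoderm formed the top of the order, with steps of 1.11-fold between them whose intervals excluded 1. They are also the libraries of the second laboratory, so laboratory and tissue cannot be told apart in this split. At the bottom, the grafted area opaca stood 3.62-fold above the anterior pre-streak epiblast [1.94, 6.50]. In the reference assembly GRCg7b the models of DLL1 and its neighbour FAM120B overlap, and whether the authors' counting used strand is not given in the sources used here. FAM120B was lower in each of the 5 pairs in which DLL1 was called lower, but by less: 1.80-fold in the area opaca (11.2 against 20.1 CPM), 1.74-fold in the pre-streak epiblast, and in the neural plate 1.83-fold against non-neural ectoderm, 1.62-fold against the anterior and 1.70-fold against the posterior PPR. It was 2.28-fold higher in the neural plate than in the anterior pre-streak epiblast, where DLL1 was also above its pre-streak level. In that assembly JAG1 overlaps SLX4IP and another gene with a placeholder symbol, JAG2 an uncharacterised non-coding RNA gene, and LFNG and NRARP none. Levels of the JAG1 and JAG2 neighbours were not compared.

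LFNG (ENSGALG00000004284) had the widest range, 111-fold. It stood at 30.2 CPM in the anterior and 6.12 CPM in the central pre-streak epiblast, at 9.35 CPM in the grafted and 0.755 CPM (11 counts) in the ungrafted area opaca, and at 84.0 CPM in the neural plate, 31.9 CPM in the anterior PPR, 46.8 CPM in the posterior PPR and 12.4 CPM in the non-neural ectoderm. The neural plate was 1.80-fold above the posterior PPR [1.74, 1.85], and the ungrafted area opaca stood 8.11-fold below the next lowest library, the central pre-streak epiblast [4.50, 16.3]. The anterior PPR and the anterior pre-streak epiblast were close, at a ratio of 1.06 [1.01, 1.11].

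NRARP (ENSGALG00000027231) was the least counted of the 5. It stood at 0.501 CPM (50 counts) in the anterior and 1.60 CPM in the central pre-streak epiblast, at 1.30 CPM (17 counts) in the grafted and 0.755 CPM (11 counts) in the ungrafted area opaca, and at 9.20 CPM in the neural plate, 2.71 CPM in the anterior PPR, 3.34 CPM in the posterior PPR and 0.936 CPM in the non-neural ectoderm. Only the neural plate passed 5 CPM, 2.76-fold above the posterior PPR [2.47, 3.08]. Among the 5 lowest libraries, from the central pre-streak epiblast downward, the interval of each step to the next included 1, although the Poisson interval of the lowest, the anterior pre-streak epiblast (0.372 to 0.661 CPM), lay below those of the central pre-streak epiblast, the grafted area opaca and the non-neural ectoderm.

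**Figure D1:**
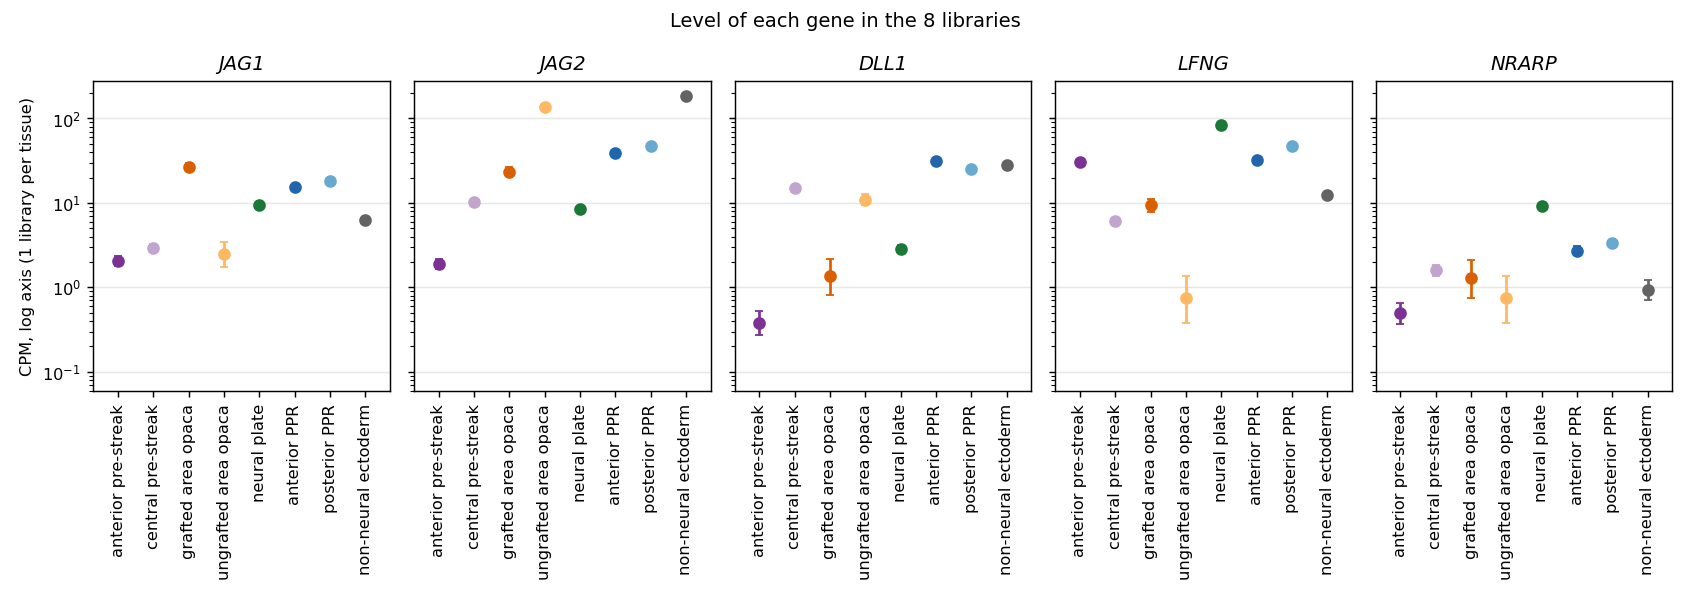
CPM (log axis) of JAG1, JAG2, DLL1, LFNG and NRARP in the 8 libraries, 1 point per library, with exact 95% Poisson intervals of the count. JAG1 is highest in the grafted area opaca (26.7 CPM), JAG2 in the non-neural ectoderm (186 CPM), DLL1 in the anterior PPR (31.2 CPM), and LFNG and NRARP in the neural plate (84.0 and 9.20 CPM).

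After node contact the area opaca had more JAG1 and LFNG and less JAG2 and DLL1. JAG1 was 10.8-fold higher on the grafted side [7.67, 15.7] and LFNG 12.4-fold higher [6.68, 25.5], while JAG2 was 5.74-fold lower [5.09, 6.49] and DLL1 7.96-fold lower [4.88, 13.8]. NRARP, at 17 grafted and 11 ungrafted counts, had a ratio of 1.73 [0.762, 4.08], so that no direction could be read at this depth. Thus 2 of the 5 genes were called higher and 2 lower, where 6.29% and 7.13% of the 11343 genes with at least 1 CPM on either side were called. Ranked by ratio among 9437 genes with at least 5 CPM on either side, LFNG and JAG1 held places 98 and 107 from the top, and DLL1 and JAG2 places 127 and 194 from the bottom. Several marker lists moved in the same pair: node and axial mesoderm markers (T, CHRD, GNOT1, SHH, NOG, FOXA2, ADMP) summed to 65.8 CPM in the grafted library, against 7.07 CPM in the ungrafted one, with 5 and 2 of 7 at 1 CPM or more, SHH at 0 counts on both sides and CHRD at 0 on the ungrafted side. NOG went the other way (0.0766 against 0.206 CPM), on few counts. Streak and paraxial mesoderm markers summed to 214 against 29.8 CPM, nearly all of it EOMES (202 against 29.8 CPM) and TBX6 (11.9 against 0 CPM). Neural plate markers summed to 371 against 52.6 CPM, with OTX2 at 108 against 3.02 CPM, MSI1 at 127 against 7.48 CPM and SOX1 at 0 on both sides. Endoderm and hypoblast markers summed to 8.89 against 61.3 CPM, with SOX17 at 0 on both sides. HHEX (0.766 against 0.137 CPM) and CER1 (0.0766 against 0 CPM) of that list went the other way, on few counts. Non-neural ectoderm markers summed to 829 against 2587 CPM, though TFAP2C of that list went the other way (167 against 81.3 CPM). The part of these in the Notch genes' differences was not tested.

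Before the streak forms, the anterior epiblast had more LFNG and less JAG2 and DLL1 than the central epiblast. LFNG was 4.93-fold higher anteriorly [4.52, 5.38]. DLL1 was 39.2-fold lower [28.4, 55.7], place 5 from the bottom of 9312 ranked genes, and JAG2 5.41-fold lower [4.63, 6.35]. JAG1 did not follow LFNG here: its anterior level was 1.42-fold below the central one [1.18, 1.70], which passed no call. NRARP was also below the central level, by 3.19-fold [2.31, 4.47], but under 5 CPM in both libraries. Of the 5 genes 1 was called higher and 2 lower, against 4.94% and 3.83% of 11476 genes. Endoderm and hypoblast markers summed to 16.3 CPM anteriorly and 84.1 CPM centrally, RBP4 holding most of the central sum (5.78 against 58.8 CPM). HHEX (5.22 against 1.91 CPM) and CER1 (0.411 against 0.0399 CPM) of that list went the other way. Node and axial mesoderm markers summed to 349 against 49.8 CPM, though NOG was lower anteriorly (0.331 against 0.659 CPM). Neural plate markers summed to 420 against 145 CPM, with SOX1 at 0 in both. Non-neural ectoderm markers summed to 766 against 1270 CPM, with TFAP2A at 3.49 against 95.9 CPM, while TFAP2C went the other way (336 against 207 CPM). The part of these in the differences was not tested.

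At HH6/7 the neural plate differed from the non-neural ectoderm most in JAG2. JAG2 was 22.1-fold lower in the neural plate [20.7, 23.7] and DLL1 9.91-fold lower [8.78, 11.2], whereas LFNG was 6.77-fold higher [6.28, 7.31] and NRARP 9.83-fold higher [7.49, 13.1]. JAG1 was above the non-neural level by 1.51-fold [1.34, 1.70] and passed no call. The counts were 2 higher and 2 lower of 5, against 7.73% and 11.0% of 12124 genes. Blood and endothelial markers summed to 4.88 CPM in the neural plate, with HBZ at 0, and to 65.6 CPM in the non-neural ectoderm, with KDR at 32.8, LMO2 at 18.95 and CDH5 at 8.31 CPM there. HBBA, listed as HBG2, went the other way (0.118 against 0 CPM), on few counts. Endothelium is known to express Notch ligands. Endoderm and hypoblast markers summed to 6.53 CPM in the neural plate and 79.5 CPM in the non-neural ectoderm, with TTR at 0.828 against 34.3 CPM and SOX17 at 0 in both. CER1 of that list went the other way (0.0364 against 0 CPM), on few counts. The part of blood, endothelial, endoderm and hypoblast cells in the non-neural values was not tested. DLL4, another Delta ligand, stood at 0.473 CPM in the neural plate and 1.06 CPM in the non-neural ectoderm, and at most at 2.39 CPM, in the posterior PPR.

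Both PPR libraries had more JAG1 and LFNG and less JAG2 than the non-neural ectoderm. Against the non-neural ectoderm, JAG1 was 2.47-fold higher in the anterior [2.20, 2.78] and 2.91-fold higher in the posterior PPR [2.61, 3.26], and LFNG 2.57-fold [2.37, 2.79] and 3.77-fold higher [3.49, 4.08]. JAG2 was 4.72-fold lower in the anterior [4.55, 4.90] and 3.90-fold lower in the posterior PPR [3.79, 4.03]. DLL1 passed no call, at ratios of 1.11 [1.04, 1.18] in the anterior and 0.904 [0.853, 0.959] in the posterior PPR. These small differences lay on opposite sides of 1, with intervals that excluded it. NRARP ratios were 2.90 [2.16, 3.95] and 3.57 [2.69, 4.81], under 5 CPM. In each PPR comparison 2 of 5 genes were called higher and 1 lower; the background was 5.65% and 6.06% of 12090 genes for the anterior and 5.83% and 7.13% of 12068 genes for the posterior PPR. These comparisons and that of the neural plate share the non-neural library. Blood and endothelial markers summed to 2.93 and 4.84 CPM in the anterior and posterior PPR, against the 65.6 CPM of the non-neural ectoderm. On few counts, HBZ in the anterior PPR (0.249 against 0.221 CPM) and HBBA in both (0.0208 and 0.0144 against 0 CPM) went the other way. Endoderm and hypoblast markers summed to 18.9 and 14.7 CPM, against 79.5 CPM. Of the latter list, HHEX in the anterior PPR (5.83 against 4.15 CPM) and CER1 in both (0.468 and 0.570 against 0 CPM) went the other way.

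Between the anterior and the posterior PPR none of the 5 genes passed the call, where 0.66% of 11823 genes were called higher anteriorly and 0.584% lower. The farthest from 1 was LFNG, 1.47-fold lower anteriorly [1.41, 1.53], place 190 from the bottom of 9856 genes. DLL1 was 1.23-fold higher anteriorly [1.17, 1.29], and JAG1 and JAG2 were lower by 1.18-fold [1.10, 1.26] and 1.21-fold [1.16, 1.26]. NRARP was 1.23-fold higher posteriorly [1.06, 1.44], but under 5 CPM in both libraries, so it could not pass the call.

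Set against the PPR, the neural plate was low in Delta and in JAG2. DLL1 was 11.0-fold lower than in the anterior [9.77, 12.4] and 8.96-fold lower than in the posterior PPR [7.98, 10.1]. JAG2 was 4.69-fold [4.36, 5.04] and 5.66-fold lower [5.28, 6.07]. JAG1 was below both, by 1.64-fold [1.51, 1.78] and 1.93-fold [1.79, 2.08], and passed no call. LFNG was 2.63-fold higher than in the anterior PPR [2.53, 2.75] and 1.80-fold above the posterior one, which is short of the call, and NRARP was 3.39-fold [2.96, 3.90] and 2.76-fold higher [2.47, 3.08]. Against the anterior PPR 2 of 5 were called higher and 2 lower, beside 2.4% and 5.53% of 11887 genes; against the posterior PPR 1 was called higher and 2 lower, beside 1.8% and 4.22% of 11800 genes.

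In the neural plate 4 of the 5 genes were called higher than in the anterior pre-streak epiblast, where 12.3% of 11769 genes were called higher and 3.95% lower. NRARP was 18.4-fold higher [13.8, 24.9], JAG1 4.52-fold [3.89, 5.27], JAG2 4.40-fold [3.76, 5.18] and LFNG 2.79-fold [2.67, 2.90]. DLL1 was 7.45-fold above its pre-streak level [5.31, 10.7] but stayed under 5 CPM. In this pair node and axial mesoderm markers summed to 40.9 CPM in the neural plate and 349 CPM in the anterior pre-streak epiblast. NOG of that list was higher in the neural plate (1.21 against 0.331 CPM). Streak and paraxial mesoderm markers summed to 12.6 against 322 CPM, with MSGN1 and MIXL1 at 0 in both. MEOX1 (1.43 against 0.120 CPM) and MESP1, listed as MESP2 (1.03 against 0.682 CPM), went the other way. The part of both lists in the differences was not tested. The median log2 ratio of all genes with at least 1 CPM was 0.20 in this pair and within 0.05 of 0 in the other 8, and other scalings moved this pair by up to 0.17 on the log2 scale.

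**Figure D2:**
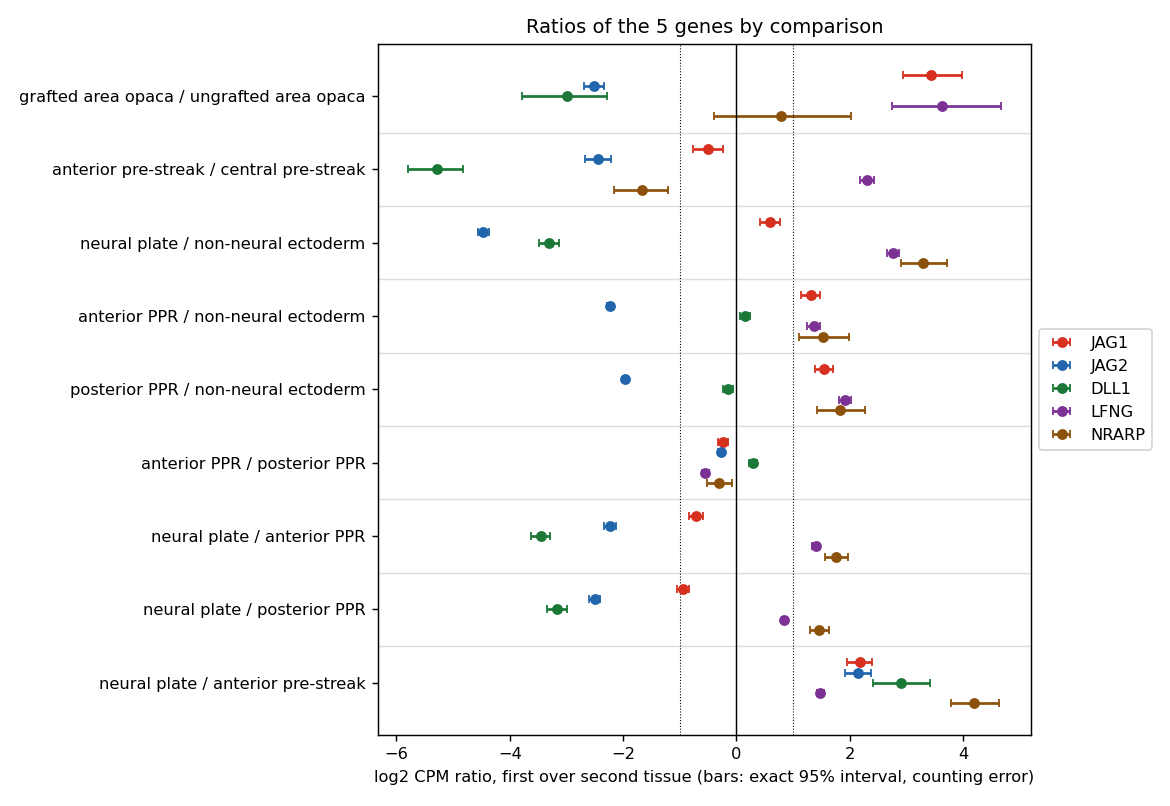
log2 CPM ratios of the 5 genes in 9 pairs of tissues, the first tissue over the second, with exact 95% intervals (counting error only; dotted lines mark a ratio of 2 either way). JAG2 and DLL1 lie left of 0 in the area opaca, pre-streak and neural plate over non-neural pairs, LFNG lies right of 0 in all 3, and JAG1 lies right of 0 in the area opaca pair (3.44), left of it in the pre-streak pair (-0.50).

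Because the ratio of a pair of genes within a library does not depend on how libraries are scaled, JAG1 was set against JAG2 and against DLL1 within each library, and these ratios were compared between tissues. The JAG1 to JAG2 ratio was 62.1 times higher in the grafted than in the ungrafted area opaca [42.9, 91.8], 3.81 times higher in the anterior than in the central pre-streak epiblast [2.99, 4.86] and 33.3 times higher in the neural plate than in the non-neural ectoderm [29.0, 38.3]. The ligands had unlike shares in these shifts. In the area opaca JAG1 gave 3.44 and JAG2 -2.52 on the log2 scale; in the neural plate over non-neural pair JAG1 gave 0.59 and JAG2 -4.47; in the pre-streak pair JAG1 itself was lower (-0.50) and JAG2 lower still (-2.44). The anterior and the posterior PPR shifted alike against the non-neural ectoderm, by 11.7 [10.3, 13.2] and 11.4 times [10.1, 12.8], and differed from each other by 1.03 times [0.951, 1.11]. The neural plate and the anterior pre-streak epiblast, different in stage, also had ratios within counting error of each other, at 1.03 times [0.821, 1.28].

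JAG1 against DLL1 shifted in the same direction in the first 3 pairs and in both PPR comparisons with non-neural ectoderm. The JAG1 to DLL1 ratio was 86.2 times higher in the grafted than in the ungrafted area opaca [45.9, 165], 27.6 times higher in the anterior than in the central pre-streak epiblast [18.96, 41.0] and 14.95 times higher in the neural plate than in the non-neural ectoderm [12.6, 17.8]. In the anterior and posterior PPR against non-neural ectoderm it was 2.23 [1.96, 2.55] and 3.22 times higher [2.84, 3.65]. JAG2 and DLL1 kept their ratio in the area opaca pair within counting error, at 1.39 times [0.835, 2.44], so both were lower on the grafted side by amounts that could not be told apart. They parted elsewhere: the JAG2 to DLL1 ratio was 7.25 times higher in the anterior than in the central pre-streak epiblast [5.04, 10.7] and 5.23 times lower in the anterior PPR than in the non-neural ectoderm [4.87, 5.61].

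**Figure D3:**
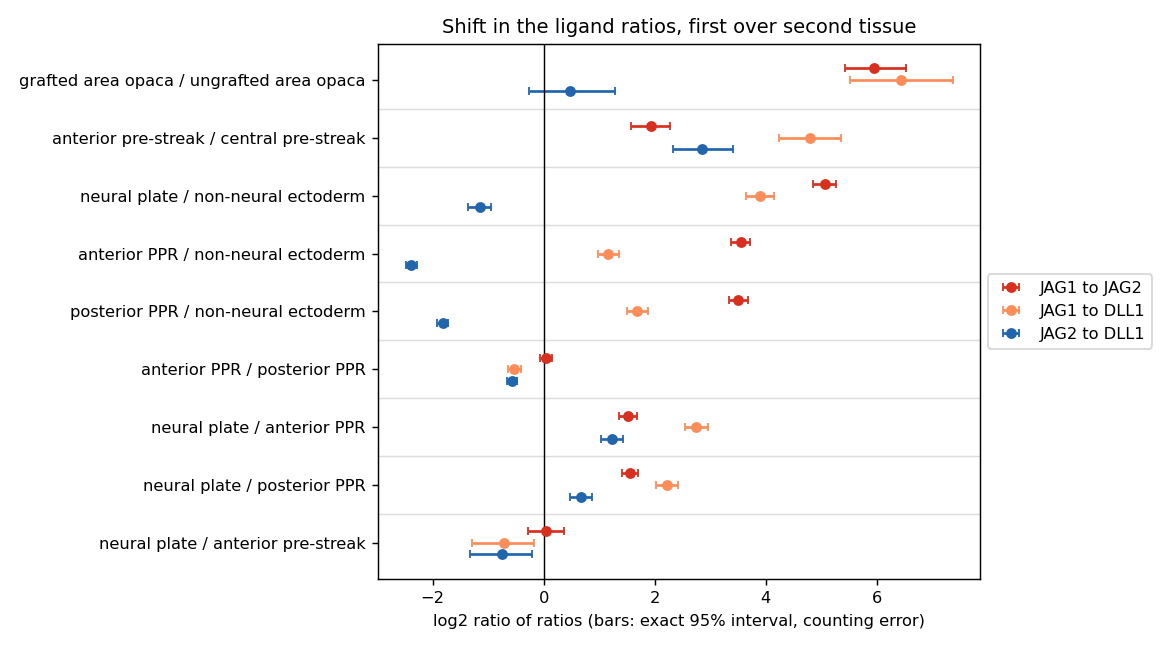
log2 shift in the ratio of 2 ligands between the tissues of each pair, first over second, with exact 95% conditional intervals (counting error only). The JAG1 to JAG2 and JAG1 to DLL1 shifts lie right of 0 in the 5 uppermost pairs, at 5.96 and 6.43 in the area opaca, while the JAG2 to DLL1 interval includes 0 there.

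Levels of different genes were compared per transcript length with the authors' FPKM (fragment counts corrected for transcript length and library size). Of the summed FPKM of JAG1, JAG2 and DLL1, JAG1 made up 60.4% in the grafted area opaca, 52.5% in the anterior pre-streak epiblast and 47.3% in the neural plate, and was the highest of the 3 in each. JAG2 led in the ungrafted area opaca, at 81.1%, and in the non-neural ectoderm, at 69.2%. DLL1 led in the central pre-streak epiblast, at 71.7%, and in the anterior and posterior PPR, at 55.1% and 45.5%. The 3 libraries led by JAG1 were among the 4 with the lowest sum: it was 1.19 FPKM in the anterior pre-streak epiblast, 4.92 FPKM in the neural plate and 12.2 FPKM in the grafted area opaca, beside 10.4 FPKM in the central pre-streak epiblast, 22.6 and 22.7 FPKM in the anterior and posterior PPR, 28.7 FPKM in the ungrafted area opaca and 43.8 FPKM in the non-neural ectoderm. In the anterior pre-streak epiblast the JAG1 lead thus rested on few transcripts of these 3 ligands, with JAG1 at 0.624, JAG2 at 0.379 and DLL1 at 0.186 FPKM. In the grafted area opaca JAG1 stood at 7.40 FPKM, its highest. The sum leaves out the non-canonical ligand DNER, at 7.40 FPKM in the anterior pre-streak epiblast and 8.05 FPKM in the neural plate. DNER stood at 3.27 FPKM in the grafted area opaca and was highest in the posterior PPR (13.4 FPKM) and the non-neural ectoderm (11.2 FPKM). NRARP was left out of such comparisons: its FPKM and CPM together imply a length of 0.099 to 0.147 kilobases, against 2.88 to 4.18 for JAG1, so its FPKM (4.53 to 68.5) is inflated relative to the other genes.

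**Figure D4:**
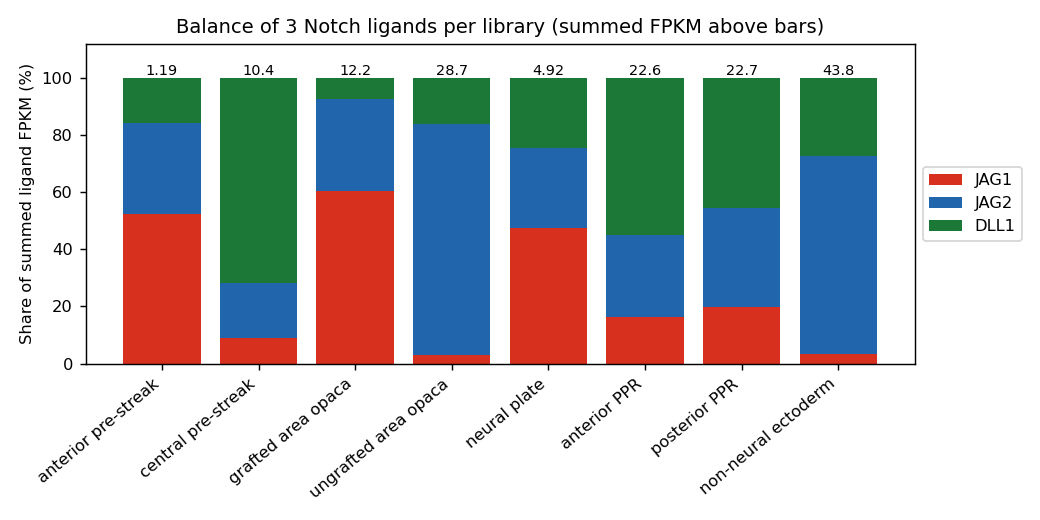
Share of JAG1, JAG2 and DLL1 in their summed FPKM in each of the 8 libraries, with the sum printed above each bar. JAG1 is the largest share in the anterior pre-streak epiblast (52.5%), the grafted area opaca (60.4%) and the neural plate (47.3%), and JAG2 in the ungrafted area opaca (81.1%) and the non-neural ectoderm (69.2%).

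Outside the 5 genes, few pathway genes passed the call in the area opaca pair. Of 53 listed Notch pathway genes 46 were matched, the 5 included, and 41 of the 46 had at least 1 CPM on either side of the graft; 4 were called higher and 2 lower, and the median log2 ratio was -0.07 against 0.02 over all genes. Besides JAG1 and LFNG, those called higher were HEY1, a repressor induced by Notch (3.46-fold [2.58, 4.70], 14.5 against 4.19 CPM), and the co-activator gene MAML3 (3.02-fold [1.92, 4.88], 5.59 against 1.85 CPM); these are 2 of the 36 measured genes outside the 5, 5.56%, beside 6.29% of all genes, and 0 of the 36 were called lower, beside 7.13%. NEURL1B, a ubiquitin ligase gene, had the lowest ratio of the list, 8.66-fold lower [2.68, 44.4], from 3 counts with the graft and 29 without, but stayed under 5 CPM. The receptors NOTCH1 (35.4 against 46.1 CPM) and NOTCH2 (302 against 264 CPM) passed no call, nor did RBPJ, the DNA-binding partner of the cut receptor (11.8 against 16.9 CPM), nor any of the 7 genes for receptor cleavage or the 7 measured for trafficking. HES5, a Notch target in neural progenitors, had 33 counts with the graft and 1 without, a ratio of 36.8 [6.17, 1499], but its 2.53 CPM is below the minimum of the call. The gene listed as HES1, whose accession GRCg7b assigns to HES4, stood at 10.6 against 13.7 CPM. Of the Fringe genes, RFNG was level (47.3 against 46.3 CPM) and MFNG had 2 and 4 counts, too few to compare.

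In the pre-streak pair 40 pathway genes were measured, of which 2 passed as higher and 3 as lower, beside 4.94% and 3.83% of all genes, and the median log2 ratio was -0.02 against 0.01 over all genes. Outside the 5 genes 1 of 35 was higher and 1 lower. DNER, a non-canonical ligand of neurons, was 2.56-fold higher anteriorly [2.34, 2.81], at 17.2 against 6.69 CPM, and MAML2 was 2.33-fold lower [2.11, 2.57]. HEY1 stood at 10.2 against 17.5 CPM and HES5 at 0.241 against 1.13 CPM, neither past the call.

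Between neural plate and non-neural ectoderm, 3 of the 5 measured feedback and target genes were called higher in the neural plate, and HEYL stood lower there. Of 42 measured pathway genes 6 were called higher in the neural plate and 3 lower, beside 7.73% and 11.0% of all genes. Outside the 5 genes 4 of 37 were higher and 1 lower. The list's median log2 ratio was -0.16, and that of all genes 0.02. The 3 called higher were NRARP, HES4 (4.61-fold [4.23, 5.04], 45.4 against 9.84 CPM) and HEY1 (3.89-fold [3.43, 4.42], 18.5 against 4.77 CPM). HES4 has no FPKM in the non-neural ectoderm, so its ratios to that tissue rest on counts alone. HES6 was at 3.38 against 0.289 CPM, and HEYL at 0.191 against 1.62 CPM, 8.46-fold lower [5.23, 14.3], both under 5 CPM. The co-activators MAML2 (4.69-fold [4.29, 5.14]) and MAML3 (4.05-fold [3.61, 4.57]) were higher. NOTCH1 stood at 213 CPM in the neural plate, its highest level in the series, and at 140 CPM in the non-neural ectoderm; NOTCH2 was at 231 and 414 CPM, and neither receptor passed the call. In each PPR, 41 pathway genes were measured against the non-neural ectoderm, 6 were called higher and 1 lower, beside 5.65% and 6.06% of all genes for the anterior and 5.83% and 7.13% for the posterior PPR. Outside the 5 genes 4 of 36 were higher and 0 lower in each case. These were MAML2, MAML3, HES4 and HEY1, the lowest ratio being 2.23, for HES4 in the anterior PPR. Between anterior and posterior PPR 0 of 40 were called in either direction, beside 0.66% and 0.584% of all genes.

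Against the anterior PPR the neural plate had 4 of 41 pathway genes higher, NOTCH1 (2.005-fold [1.96, 2.05]) and HES4 (2.07-fold [1.97, 2.18]) among them, and 2 lower, beside 2.4% and 5.53% of all genes. Outside the 5 genes 2 of 36 were higher and 0 lower. By the authors' FPKM HES4 went the other way, at 110.6 in the neural plate and 124.4 in the anterior PPR. Its FPKM and CPM imply lengths from 0.0697 to 0.501 kilobases in different libraries. Against the posterior PPR 1 of 41 was higher and 2 lower, beside 1.8% and 4.22%. Outside the 5 genes 0 of 36 were called in either direction there. Against the anterior pre-streak epiblast 10 of 41 were called higher and 0 lower, beside 12.3% and 3.95% of all genes; the list's median log2 ratio was 0.54, and that of all genes 0.20. Outside the 5 genes 6 of 36 were called higher and 0 lower. These were MAML2 (7.47-fold [6.84, 8.16]), MAML3 (6.80-fold [6.05, 7.66]), HES4 (3.18-fold [2.99, 3.37]), NOTCH1 (2.96-fold [2.88, 3.04]), the ligand-activating ubiquitin ligase MIB1 (2.39-fold [2.33, 2.45]) and RBPJ (2.11-fold [1.92, 2.33]). By FPKM HES4 stood at 110.6 in the neural plate and 78.5 in the anterior pre-streak epiblast, a smaller difference than by counts.

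**Figure D5:**
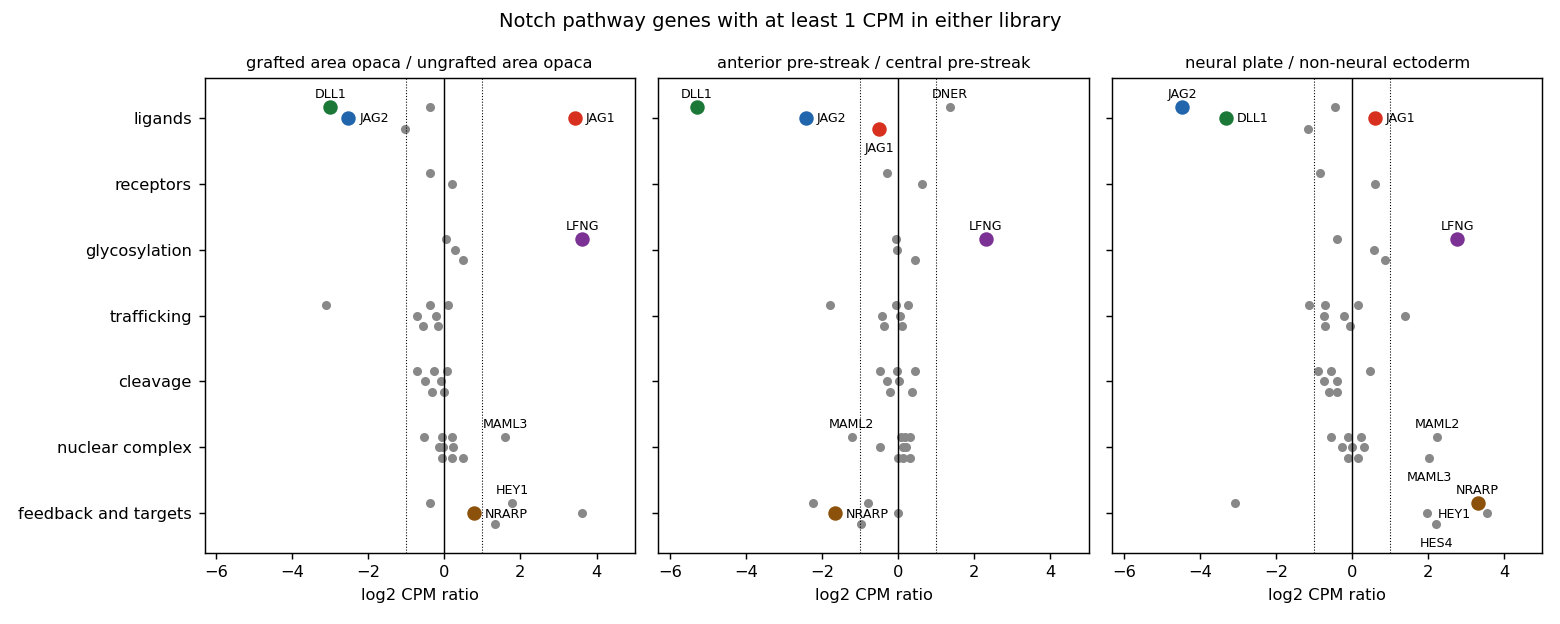
log2 CPM ratios of Notch pathway genes by role in the area opaca, pre-streak and neural plate over non-neural pairs, 1 point per gene with at least 1 CPM in either library (counts under 3 set to 3; dotted lines mark a ratio of 2 either way; the 5 genes in colour, other called genes named, 1 gene not drawn). DLL1 and JAG2 lie at the left and LFNG at the right of all 3 panels, while the genes for cleavage lie within 1 of 0 in each.

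Across the 8 libraries, on log2(CPM + 1), JAG1 ran with neither JAG2 (Pearson r 0.19, Spearman rho 0.19) nor DLL1 (0.14 and 0.26), whereas JAG2 and DLL1 ran together more closely (0.71 and 0.67), as did LFNG and NRARP (0.68 and 0.67). JAG2 and LFNG had coefficients of -0.46 and -0.29. For JAG1 they were 0.43 and 0.38 with LFNG, and 0.47 and 0.64 with NRARP. These are descriptions over 8 points, of which the grafted and ungrafted pieces share embryos and groups of libraries share a stage and a laboratory. Among 8415 named genes reaching 10 CPM anywhere, the patterns most like that of JAG1 were those of KCTD15, known in zebrafish to hold back neural crest formation (r 0.98), ZFYVE28 (0.97) and PHF14 (0.96). All 3 were highest in the grafted area opaca, KCTD15 at 19.8 CPM there, against 5.42 CPM in the ungrafted one. JAG2 was most like C2CD2, DENND4C and GNPTAB (0.99, 0.99 and 0.98), all highest in the non-neural ectoderm. DLL1 was most like TFAP2A, a regulator of surface ectoderm and neural plate border (0.96), then LRRK2 (0.95) and CAMK1 (0.93). LFNG was most like NT5C2 (0.997) and SHANK2 (0.99), and NRARP most like ACSBG2 (0.96), UBXN2B (0.96) and CREPT (0.95), in each case highest in the neural plate.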

How the data were processed

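The authors deposited raw counts per gene and FPKM (fragments per kilobase, scaled to each library) for 8 libraries. TopHat2 and the build galGal4 are named in the submitters' processing notes; how reads were counted, and with which annotation and strand setting, is not given in the sources used here. Count and FPKM columns were matched to samples by the tissue and library codes in their names; the count column taken as non-neural ectoderm has a p before its code that the label does not have. CPM came from the deposited counts divided by column totals. CPM ratios carry exact Clopper-Pearson 95% intervals conditional on the summed counts, ratios of ratios exact conditional intervals of the odds ratio, and levels Poisson intervals. The intervals of ratios and of ratios of ratios were checked on simulated data, and the Poisson intervals were not. The simulations drew Poisson counts, those for ratios from well-counted genes only, and thus did not check ratio intervals at the lowest counts given here. No test between tissues was possible with 1 library each. Calls needed a ratio of 2 with 5 CPM in the higher library; the background holds genes with 1 CPM in either. Counts of 0 to 2 were set to 3 in medians. The genes named are the 5 members, pathway genes, and per member the 3 genes of highest r (pseudocount 1, at least 10 CPM, no placeholder symbol); a few of these genes and markers are not reported here by name. Members and lists were chosen with earlier results of these data known. Pathway symbols were matched to the table, 2 through synonyms of GRCg7b (NEURL1 as NEURL, HES4 as HES1); 7 of 53 had no match. FPKM of the 5 genes followed their counts over the 8 libraries (r from 0.985 to 0.999). Alternatives were TMM factors (edgeR 4.0.16), DESeq2 1.42.0 size factors, totals without the 100 highest genes, upper quartiles (chosen after seeing the data), FPKM with pseudocounts of 1 and 0.1, other minimums and a ratio of 4. Python 3.11.15, scipy 1.17.1, numpy 2.4.6, pandas 2.3.3, matplotlib 3.10.9 and R 4.3.3 were used.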

Additional observations from a re-analysis of the deposited data

How the results depend on the processing

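Under TMM factors, DESeq2 size factors, totals without the 100 highest genes and upper quartiles (chosen after seeing the data), 0 calls of the 5 genes changed, and all 28 called ratios kept their sign under these and under FPKM with either pseudocount. The largest shift by a scaling was 0.17 on the log2 scale. With DESeq2 size factors the pathway list had 2 genes lower in the posterior PPR than in the non-neural ectoderm, in place of 1.

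Under FPKM the log2 shifts between ligands mostly shrank. A pseudocount draws low FPKM values together by construction, but FPKM and counts also differed before any pseudocount. For DLL1 they imply a length of 1.52 kilobases in the grafted and 2.40 in the ungrafted area opaca. The JAG1 to DLL1 ratio in FPKM alone was 8.13 and 0.187 in those libraries. With a pseudocount of 0.1, JAG1 to DLL1 was 5.18 for the area opaca pair and 4.21 for the pre-streak pair, and JAG2 to DLL1 was -0.32 for the area opaca pair, whose counting interval included 0, and -2.27 and -1.72 for the anterior and posterior PPR over non-neural ectoderm. With a pseudocount of 1, JAG1 to JAG2 was 4.48 for the area opaca, 0.88 for the pre-streak epiblast, 4.13 for neural plate over non-neural ectoderm, 2.97 and 2.96 for the anterior and posterior PPR over non-neural ectoderm, and 1.16 and 1.17 for neural plate over anterior and posterior PPR. JAG1 to DLL1 was 3.73, 2.58, 2.97, 0.85, 1.34, 2.11 and 1.63 in the same order. For neural plate over anterior pre-streak epiblast it turned to 0.14, against -0.72 from the counts, where DLL1 had 38 counts in the pre-streak library. JAG2 to DLL1 was -0.75 for the area opaca, 1.71 for the pre-streak epiblast, -2.12 and -1.63 for the anterior and posterior PPR over non-neural ectoderm, 0.96 and 0.46 for neural plate over anterior and posterior PPR, and -0.11 for neural plate over anterior pre-streak epiblast.

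Counts over the pathway list moved with the minimum. With a minimum of 1 CPM the genes called lower were 4 in the area opaca, 6 in the pre-streak and 6 in the neural plate over non-neural pair, 2 in each PPR over non-neural ectoderm and 1 in neural plate over anterior pre-streak epiblast, and those called higher were 1 in anterior over posterior PPR and 3 in neural plate over posterior PPR. With a minimum of 3 counts, 4 were lower in the area opaca; 4 were higher and 7 lower in the pre-streak pair; 12 and 6 in neural plate over non-neural ectoderm; 10 and 2 in anterior and 11 and 2 in posterior PPR over non-neural ectoderm; 2 and 1 in anterior over posterior PPR; 8 and 4 in neural plate over anterior and 6 and 4 over posterior PPR; and 17 and 1 in neural plate over anterior pre-streak epiblast. At a ratio of 4, 2 were higher in the area opaca, 1 in the pre-streak pair, 5 in neural plate over anterior pre-streak epiblast and 0 in either PPR over non-neural ectoderm or neural plate over either PPR, and 0 were lower in posterior PPR over non-neural ectoderm.

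No paired analysis was possible because each tissue has 1 library, and no library could be left out. The intervals hold no spread between embryos, dissections or library preparations. Depth limits the area opaca pair most, where NRARP had 17 counts with and 11 without the graft, LFNG 11 counts without the graft and DLL1 18 with it.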
